A study of Mus musculus with 9 samples.

Results

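The collagen genes of the mouse are described here across injured and uninjured spinal cord. A gene was taken as a member when it was protein-coding in GENCODE M21 and its symbol was Col, a number, the letter a and a second number. Of 52550 genes in the count table, 44 met this rule. They were sorted by textbook role into 11 fibrillar collagens, 8 basement membrane collagens, 9 network and beaded filament collagens, 9 fibril-associated collagens and 7 transmembrane and other collagens.

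RNA was sequenced from the spinal cord of adult female C57BL/6N mice at day 7, in 3 groups of 3 mice. Sham mice had the vertebral arch removed and no contusion, and no vehicle is described for them. SCI mice had a thoracic contusion and the DMSO vehicle. SCI+FIPI mice had that contusion and intraperitoneal FIPI every day from the injury on. Contusion and vehicle therefore cannot be told apart in SCI against Sham. FIPI is a small-molecule inhibitor of phospholipase D, the enzyme that makes phosphatidic acid from phosphatidylcholine. Each library came from the cord segment around the epicenter of 1 mouse, with 20806000 to 24582377 counts per mouse, so all cell types of the segment were measured together. In such tissue, fewer cells of a type and less RNA per cell cannot be told apart. With 3 mice a group and 1 time point, p-values measure only the spread between these mice.

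Collagens are secreted or membrane-bound proteins of 3 chains wound into a helix, which requires a glycine in each triplet of residues. Fibrillar collagens such as types I, III and V assemble into banded fibers of connective tissue and scar. Type IV chains form the sheet under endothelium and around pericytes and glial end-feet, type VI forms beaded filaments, and types VIII and X form hexagonal networks. In the intact cord, collagen lies mainly in the meninges and the vessel wall. A contusion adds fibroblast-rich scar tissue at its core.

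The repeat that defines the family is shown for 1 fibrillar, 1 basement membrane and 1 network chain, because the results below turn on these 3 classes. Each stretch is 60 coding bases of the GENCODE M21 transcript, 5′ to 3′, and the capitals mark its 7 glycine codons. The stretches cover coding bases 502 to 561 of Col1a1, 127 to 186 of Col4a1 and 904 to 963 of Col10a1.
Col1a1: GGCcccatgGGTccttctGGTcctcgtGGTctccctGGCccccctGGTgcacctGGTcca
Col4a1: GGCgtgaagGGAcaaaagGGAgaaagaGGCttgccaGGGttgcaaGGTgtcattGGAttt
Col10a1: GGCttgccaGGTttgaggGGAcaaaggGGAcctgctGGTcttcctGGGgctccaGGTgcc
The chains differ in how long this repeat runs without a break. In the translated coding sequences the longest run was 338 triplets in Col1a1, 40 in Col4a1 and 60 in Col10a1. Over all fibrillar chains it ranged from 216 triplets in Col24a1 to 344 in Col3a1, and over the Col4 chains from 39 in Col4a3 to 66 in Col4a2. Despite the shared repeat, at most 3.71% of the 50-base stretches of a member's longest transcript were found in other genes, in Col6a6. For Col10a1, Col1a1, Col4a1 and Col4a2 the share was 0%.

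Collagen RNA was higher after contusion in every class, by 3 of 6 to 7 of 9 of the members tested. All collagens together took 0.122%, 0.205% and 0.181% of the counts in the 3 Sham mice. Their share was 1.31%, 1.68% and 1.66% in the SCI mice, and 1.21%, 1.47% and 1.23% in the SCI+FIPI mice. The Sham mice lay far below all 6 injured mice, while the injured groups overlapped. Type I and III chains (Col1a1, Col1a2, Col3a1) made up 19.97% to 38.2% of the collagen counts in Sham and 63.1% to 66.8% in SCI mice.

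**Figure D1:**
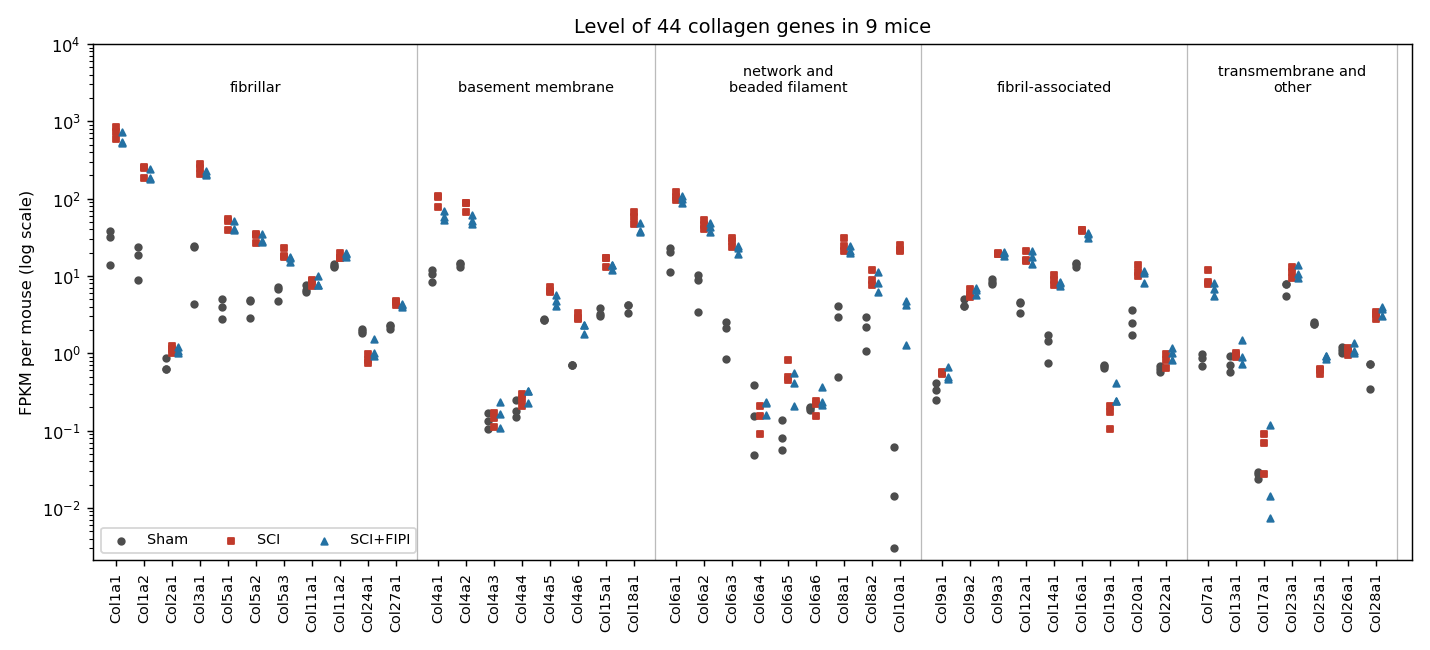
FPKM (counts scaled to library total and exonic length, log axis) of each of the 44 collagen genes in each of 9 mice, by class; Sham mice are grey circles, SCI mice red squares, SCI+FIPI mice blue triangles, and a value of 0 is drawn at the lower edge. Col1a1 reached the highest level after injury, and Col10a1 was near 0 in all 3 Sham mice.

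Levels are given below as CPM (counts relative to library size, with TMM factors) for 1 gene across mice, and as FPKM (counts relative to library total and exonic length) where different genes are compared. A call required both a log2 fold change of 0.5 or more in size and a Benjamini-Hochberg adjusted p under 0.05 in edgeR's quasi-likelihood test over 18699 genes. The filter on low counts kept 43 collagens and left out Col17a1, a hemidesmosome collagen at 0.0447 to 0.713 CPM. In SCI against Sham, 30 of the 43 rose and 3 fell, against 24.4% of all genes tested that rose and 22.5% that fell. The median log2 fold change was 2.12 over the collagens and -0.003 over all genes tested.

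**Figure D2:**
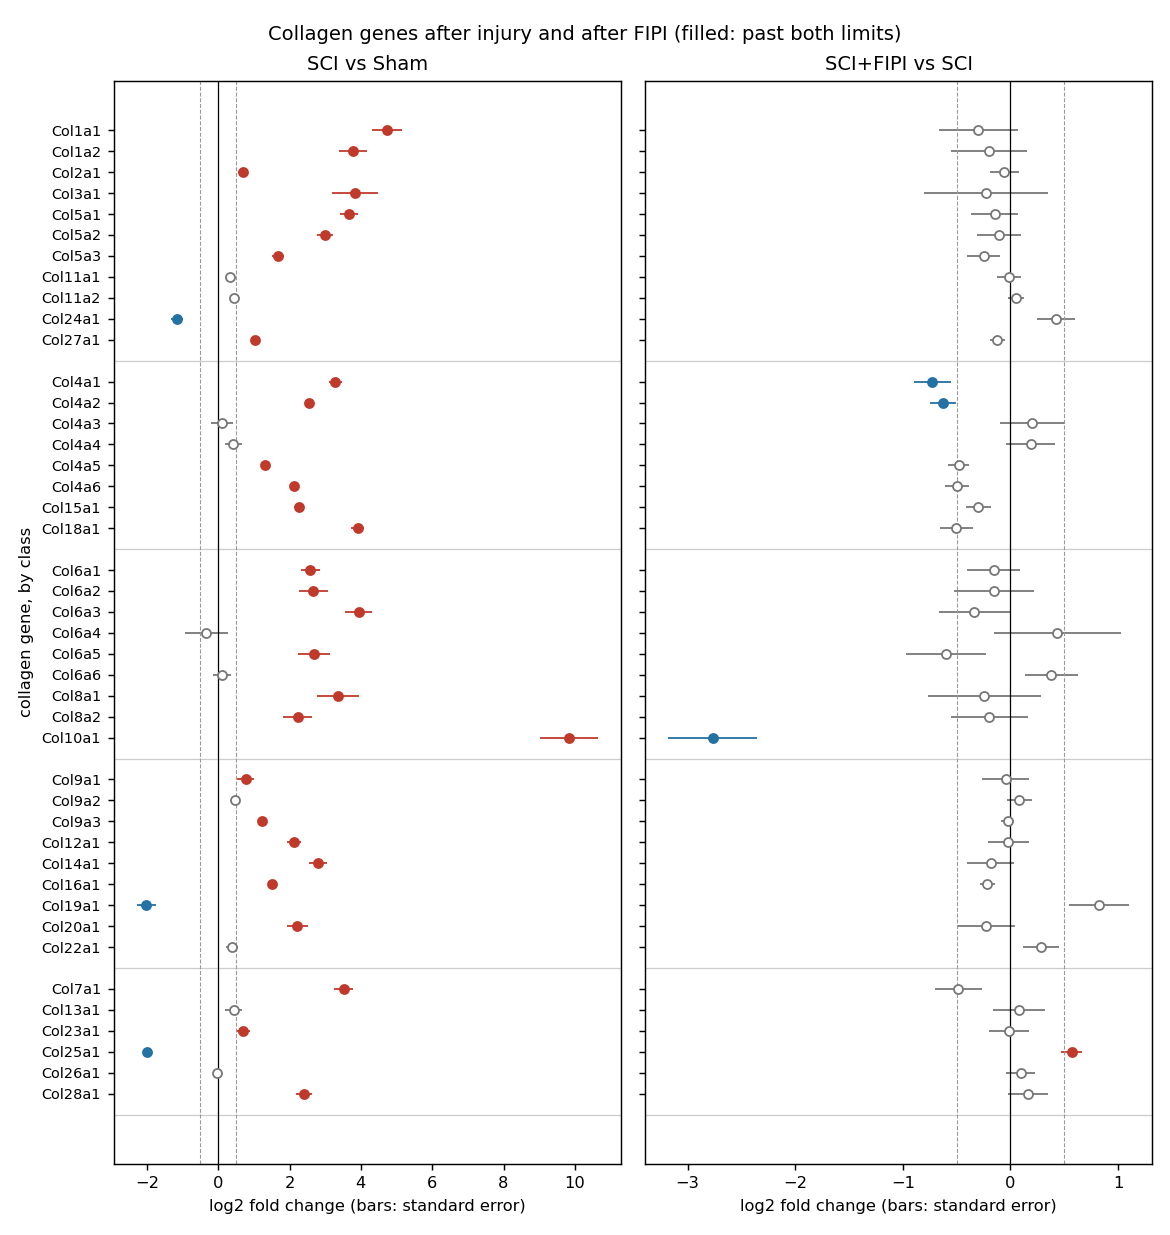
Log2 fold change with its standard error for 43 collagen genes in SCI against Sham (left) and SCI+FIPI against SCI (right), by class; filled points passed both limits, red for higher and blue for lower, and dashed lines mark 0.5 on the log2 scale. Most points lie right of 0 on the left, where 30 rose, and few are filled on the right, where 1 rose and 3 fell; the horizontal scales differ.

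Among fibrillar collagens 8 of 11 rose in SCI, 1 fell and 2 did not pass, with a median log2 fold change of 1.67. Of all genes tested 24.4% rose and 22.5% fell. Col1a1, the major chain of type I collagen, was at 90.5, 244 and 209 CPM in the Sham mice. It was at 3897, 5673 and 4862 CPM in the SCI mice and at 3441, 4732 and 3566 CPM in the SCI+FIPI mice. No Sham mouse came near an injured one, whereas SCI and SCI+FIPI mice overlapped. Its log2 fold change in SCI against Sham was 4.73 (SE 0.430, n = 3 and 3, edgeR adjusted p = 6.3e-05), the largest rise after that of Col10a1. It also had the highest mean FPKM of the family, 449.7 over the 9 mice, followed by 159.6 for Col3a1.

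Col3a1, the chain of type III collagen in pliable tissue, was at 42.1, 236 and 235 CPM in the Sham mice. The SCI mice were at 2093, 2521 and 2758 CPM, and the SCI+FIPI mice at 2027, 2260 and 1999 CPM. One mouse, Sham 1, was lower than the other Sham mice, and the log2 fold change of Col3a1 was 3.84 (SE 0.646, edgeR adjusted p = 0.00183) with it and 3.38 (edgeR adjusted p = 6.72e-10) without it. The same mouse was lowest of its group for Col1a1 and Col1a2, and for Col8a1, at 3.83 CPM against 31.4 and 23.2 CPM. Col8a1, a network collagen of vessel walls, had a log2 fold change of 3.36 with Sham 1 and 2.88 without it. The summed CPM of 10 fibroblast and meninges markers was likewise 158.4 in Sham 1 and 298.1 and 313.3 in the other Sham mice. Its part in these results was not tested. Without Sham 1, 33 collagens still passed both limits in SCI against Sham.

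Fibrillar chains of lower abundance moved less or the other way. The type V chains Col5a1, Col5a2 and Col5a3, which regulate fiber diameter, rose by 3.66, 2.98 and 1.67 on the log2 scale. The cartilage chain Col2a1 rose by 0.70 (edgeR adjusted p = 0.000543), from 6.52 ± 1.24 CPM to 10.6 ± 1.02 CPM (mean ± SD, n = 3 each). Col11a1 and Col11a2 had adjusted p-values of 0.0275 and 9.6e-05 in edgeR but log2 fold changes of 0.32 and 0.44, under the limit. Col24a1 was the fibrillar chain that fell. It was at 14.7, 15.5 and 13.8 CPM in Sham, 7.46, 6.41 and 5.70 CPM in SCI and 7.64, 11.6 and 7.00 CPM in SCI+FIPI mice. Its log2 fold change was -1.17 (SE 0.170, edgeR adjusted p = 3.1e-05) in SCI against Sham. In SCI+FIPI against SCI it was 0.42 with an edgeR adjusted p of 0.146, and 1 of the 3 SCI+FIPI mice lay well above the other two.

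With FIPI 0 of 11 fibrillar collagens passed in edgeR, DESeq2 or limma-voom. Among all genes tested in edgeR 2.36% rose and 0.695% fell, so 0 calls among 11 do not set the class apart. In edgeR 1 of the 11 had an unadjusted p under 0.05, 9 had negative log2 fold changes, and the median was -0.12. For Col1a1 the log2 fold change in SCI+FIPI against SCI was -0.30 (SE 0.367, edgeR adjusted p = 0.679), and for Col3a1 -0.23 (SE 0.575, edgeR adjusted p = 0.856). The fit shares 1 dispersion per gene over all 9 mice, and without Sham 1 the standard errors were 0.158 for Col1a1 and 0.0969 for Col3a1, with edgeR adjusted p-values of 0.287 and 0.161. Without that mouse, too, 0 of 11 were called in edgeR. Among the other fibrillar chains the standard errors with all mice ranged from 0.0686 for Col27a1 to 0.351 for Col1a2.

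Of 8 basement membrane collagens, 6 rose in SCI and 0 fell, against 24.4% and 22.5% of all genes tested. Their median log2 fold change was 2.19. Col4a1 and Col4a2 encode the chains of the commonest type IV trimer and are transcribed away from each other on chromosome 8. Their 5′ ends overlap by 22 bases (GRCm38, Col4a1 at chr8:11198423-11312826 on the minus strand and Col4a2 at chr8:11312805-11449287 on the plus strand). Col4a1 was at 62.1, 88.0 and 78.3 CPM in Sham and 596.6, 808 and 820.0 CPM in SCI mice. With FIPI it was at 521, 431 and 391.9 CPM. All SCI+FIPI mice were below all SCI mice and above all Sham mice.

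The rise of Col4a1 in SCI was 3.28 on the log2 scale (SE 0.188, edgeR adjusted p = 6.27e-07). In SCI+FIPI against SCI it fell by 0.73 on the log2 scale (SE 0.171, edgeR adjusted p = 0.0361), to a level still 2.56 above Sham. This fall was the least stable of the 3: in edgeR the adjusted p was 0.0594 without Sham 3, 0.111 without SCI 2, 0.165 without SCI 3, 0.143 without SCI+FIPI 2 and 0.0962 without SCI+FIPI 3. It was also 0.0803 with no filter on low counts and 0.0556 with offsets for GC content and exonic length, while the log2 fold change stayed between -0.64 and -0.86 over all settings.

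Col4a2 was at 85.8, 94.8 and 94.9 CPM in the Sham mice and 444, 584 and 587 CPM in the SCI mice. The SCI+FIPI mice had 402, 339 and 308 CPM, again all below the SCI mice and above the Sham mice. It rose by 2.55 in SCI (SE 0.128). With FIPI it fell by 0.62 on the log2 scale (SE 0.120, edgeR adjusted p = 0.0121). Leaving out SCI 3 gave -0.56 with an edgeR adjusted p of 0.0684, and leaving out SCI+FIPI 2 gave -0.60 with 0.0666.

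**Figure D3:**
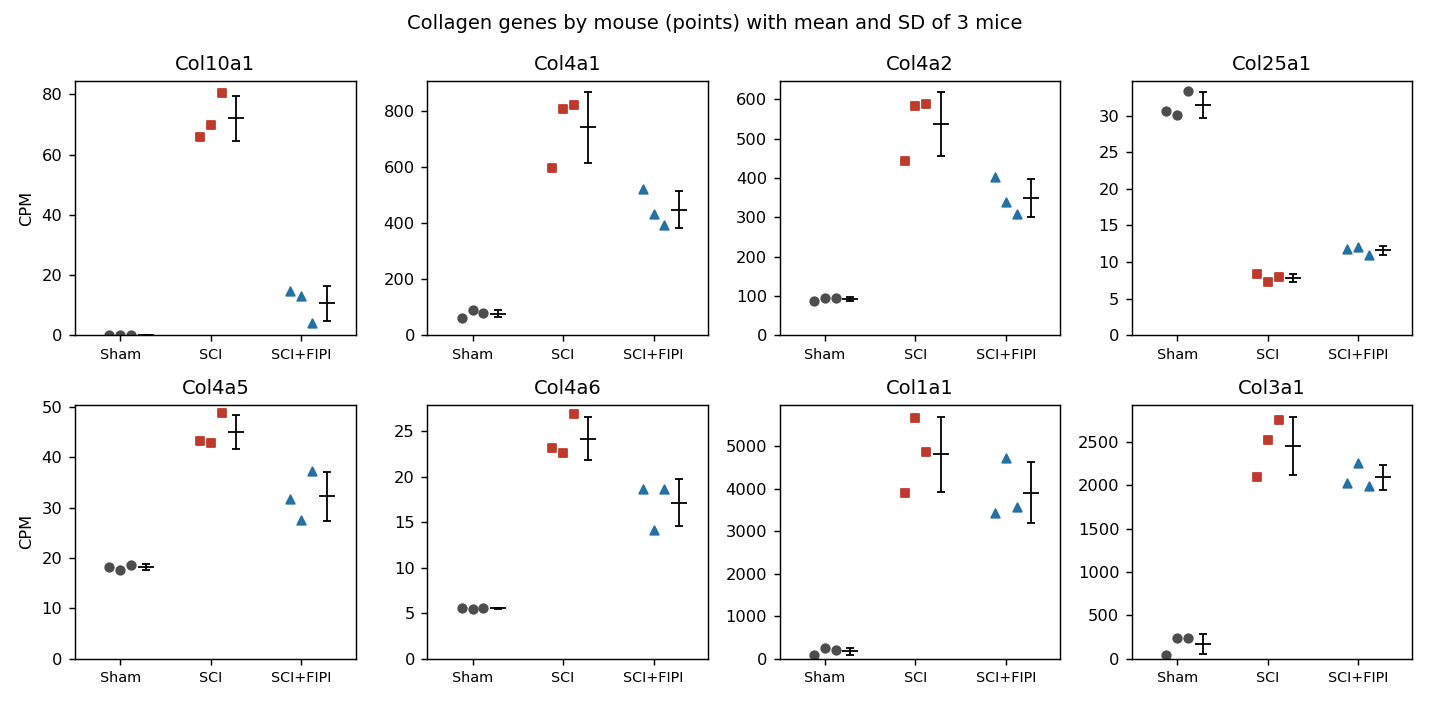
CPM of 8 collagen genes in each mouse (points, 3 a group) with the group mean and SD (bars to the right); each vertical axis starts at 0. For Col10a1, Col4a1, Col4a2, Col4a5 and Col4a6 all SCI+FIPI mice lie below all SCI mice, for Col25a1 above them, and for Col1a1 and Col3a1 the injured groups overlap.

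Another divergent pair of type IV genes, Col4a5 and Col4a6 on chromosome X, lay just outside the limits with FIPI. Col4a5 was at 18.3, 17.5 and 18.7 CPM in Sham, 43.2, 42.9 and 48.8 CPM in SCI and 31.8, 27.6 and 37.3 CPM in SCI+FIPI mice. Its log2 fold change in SCI+FIPI against SCI was -0.48 (SE 0.0971, edgeR adjusted p = 0.00993), short of the fold limit by a small margin. Col4a6 went from 5.56, 5.44 and 5.60 CPM in Sham to 23.2, 22.6 and 26.9 CPM in SCI and 18.6, 14.2 and 18.6 CPM in SCI+FIPI mice. Its log2 fold change with FIPI was -0.499 (SE 0.111, edgeR adjusted p = 0.0142), and it passed both limits under 10 of 18 alternative settings. In both genes the 3 groups did not overlap.

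The third divergent pair, Col4a3 and Col4a4, encodes the chains of the kidney glomerulus and was scarce in the cord. Mean Col4a3 levels were 0.136, 0.143 and 0.168 FPKM in Sham, SCI and SCI+FIPI mice, and Col4a4 levels were 0.192, 0.253 and 0.293 FPKM. Neither passed the limits in SCI against Sham. In SCI+FIPI against Sham Col4a4 was called (log2 fold change 0.61, edgeR adjusted p = 0.0352). Its mice overlapped there, and 13 of 18 alternative settings kept the call. Col15a1 and Col18a1, whose ends are released as restin and endostatin, rose by 2.26 and 3.91 in SCI on the log2 scale. Col18a1 was at 23.0, 28.6 and 29.6 CPM in Sham mice, 335, 414 and 474 CPM in SCI mice and 339, 259 and 264 CPM in SCI+FIPI mice. One SCI+FIPI mouse therefore lay inside the SCI range, and the log2 fold change was -0.50 (SE 0.154, edgeR adjusted p = 0.0802). Without SCI 1 it was -0.62 with an edgeR adjusted p of 0.0229, and without SCI+FIPI 1 it was -0.64 with 0.0326. DESeq2 also called it (-0.51, adjusted p = 0.00279).

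As a class, basement membrane collagens had the lowest median log2 fold change with FIPI, -0.49, with 2 of 8 lower and 6 of 8 negative. Over all genes tested the median was -0.001, 0.695% were called lower, and 9407 of 18699 had negative log2 fold changes. The 6 Col4 genes held 8.41%, 8.56% and 8.88% of the collagen counts in SCI mice and 8.10%, 5.57% and 6.24% in SCI+FIPI mice. The latter shares were all below the former, and both groups were below the 10.46% to 14.4% of Sham mice. The summed CPM of 8 endothelial markers was 537.8 to 562.4 in SCI and 421.4 to 514.3 in SCI+FIPI mice, with 0 of 8 called in edgeR, DESeq2 or limma-voom, 3 at an unadjusted p under 0.05 in edgeR, and 8 of 8 negative. For 8 pericyte and smooth muscle markers it was 608.2 to 756.4 in SCI and 488.6 to 562.0 in SCI+FIPI mice, with 1 of 7 tested lower (Rgs5). Their part in the type IV values was not tested.

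**Figure D4:**
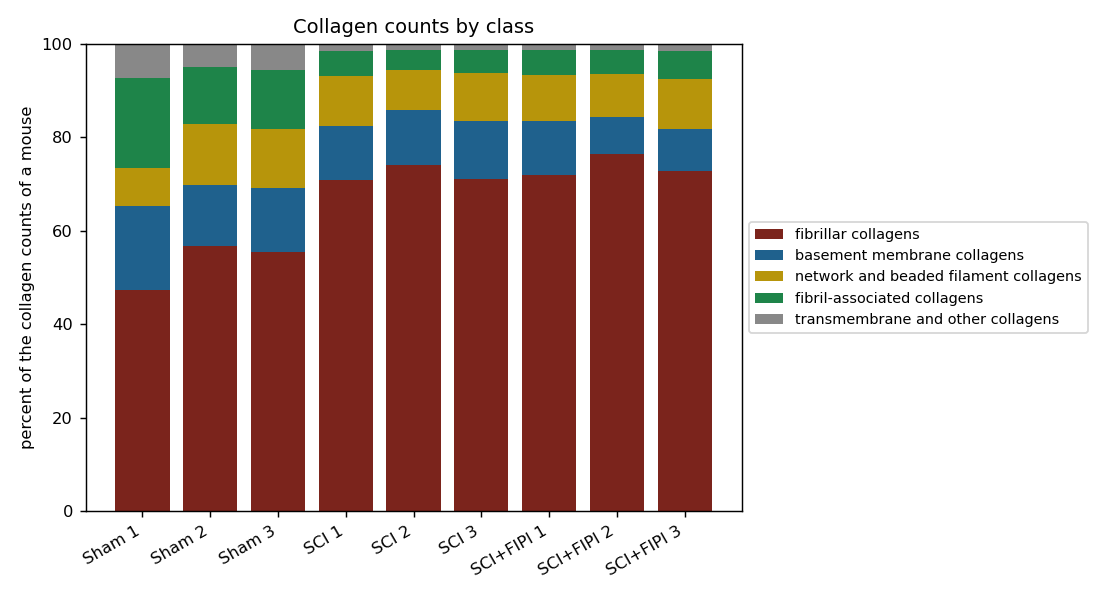
Percent of the collagen counts of each mouse that fell to each of the 5 classes (stacked bars, 9 mice, summing to 100). Fibrillar collagens took 47.4% to 56.7% in Sham mice and 70.9% to 76.5% in injured mice, and the basement membrane share was 11.6% to 12.4% in SCI mice and 7.84% to 11.6% in SCI+FIPI mice.

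Network and beaded filament collagens had the highest median log2 fold change in SCI, 2.66. Of 9, 7 rose and 0 fell, against 24.4% and 22.5% of all genes tested. Col10a1, the network collagen of hypertrophic cartilage, stood apart from all other members. Its counts in the Sham mice were 4, 1 and 0, against 1571, 1688 and 1906 in SCI and 330, 309 and 96 in SCI+FIPI mice. In CPM this was 0.192, 0.0432 and 0 in Sham, 65.9, 69.8 and 80.4 in SCI and 14.8, 13.1 and 4.03 in SCI+FIPI mice. The 3 groups were fully separate, and SCI+FIPI 3 was the lowest injured mouse.

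The fitted log2 fold change of Col10a1 in SCI against Sham was 9.83 (SE 0.820, edgeR adjusted p = 3.9e-05), the highest of all 18699 genes tested. That size rests on 5 counts over the Sham mice, and was 11.41 without Sham 1. With FIPI, Col10a1 fell by 2.77 on the log2 scale (SE 0.415, edgeR adjusted p = 0.0131), so that the mean of 10.6 ± 5.77 CPM was 0.147 of that in SCI mice, 72.0 ± 7.52 CPM (SD, n = 3 each). Relative to Sham it was still 7.07 higher on the log2 scale (edgeR adjusted p = 0.000874). Leaving out SCI 3 gave -2.68 with an edgeR adjusted p of 0.0516, and leaving out SCI+FIPI 2 gave -2.95 with 0.0634. The gene drops out when 10 or more counts are asked of each mouse, since its Sham counts are near 0.

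Per length, Col10a1 stood at 22.7 ± 2.39 FPKM in SCI mice, close to the 25.4 ± 4.96 FPKM of Col8a1, its nearest relative in structure. In SCI+FIPI mice the values were 3.40 ± 1.84 FPKM for Col10a1 and 21.8 ± 2.52 FPKM for Col8a1. Col8a1 and Col8a2 were not called with FIPI, at -0.24 and -0.19 on the log2 scale with edgeR adjusted p-values of 0.831 and 0.797. The longest repeat run of these 3 chains is 59 or 60 triplets. The difference in response between Col10a1 and the type VIII chains was not tested.

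Col10a1 lies at chr10:34389981-34397085 on the plus strand (GRCm38), inside a region also covered by Nt5dc1 on the other strand, and 0.575% of its exonic bases overlap exons of Nt5dc1. Whether the counting used strand is not given in the sources used here. Nt5dc1 rose by 0.91 on the log2 scale in SCI against Sham (edgeR adjusted p = 0.000213). In SCI+FIPI against SCI, Nt5dc1 had a log2 fold change of 0.05 (edgeR adjusted p = 0.884). Bone and cartilage markers are given beside it because Col10a1 is best known from cartilage. Of 13 tested, 3 rose in SCI (Comp, Matn3 and Ucma), close to the 24.4% of all genes tested that rose. Only 1 fell (Dmp1), against 22.5% of all genes tested. With FIPI 1 rose in edgeR (Bglap), against 2.36% of all genes tested. DESeq2 did not call Bglap and called only Ibsp. The summed CPM of the bone and cartilage markers was 54.2 to 60.7 in Sham, 56.2 to 59.7 in SCI and 53.0 to 85.4 in SCI+FIPI mice. Their part in the Col10a1 values was not tested.

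Genes with the pattern most like Col10a1 were ranked by Pearson's r of log2 CPM over the 9 mice, which share the same 3 group differences. The leading 5 were Ptprj (r = 0.9971), Prc1 (0.9948), Ist1, Selenoh and Mpp1 (0.9937 each). Their changes were far smaller. Ptprj, a receptor tyrosine phosphatase, was at 53.1, 50.8 and 48.9 CPM in Sham, 84.0, 86.0 and 84.5 CPM in SCI and 74.0, 72.9 and 69.8 CPM in SCI+FIPI mice.

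The promoters of Col10a1 and Col4a6 are shown as members that were lower, or nearly so, with FIPI. Each is the 250 bases upstream of the RefSeq start in GRCm38.p6, 5′ to 3′ on the gene's strand, at chr10:34389731-34389980 (plus) and chrX:141474077-141474326 (minus). Capitals mark TATAAA in Col10a1 and the reverse complement of GGGCGG in Col4a6.
Col10a1: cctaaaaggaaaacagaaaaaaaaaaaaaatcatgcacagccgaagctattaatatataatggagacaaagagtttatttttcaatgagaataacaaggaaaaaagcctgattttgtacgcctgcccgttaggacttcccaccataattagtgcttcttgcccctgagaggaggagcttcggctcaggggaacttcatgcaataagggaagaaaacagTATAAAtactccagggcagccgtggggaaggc
Col4a6: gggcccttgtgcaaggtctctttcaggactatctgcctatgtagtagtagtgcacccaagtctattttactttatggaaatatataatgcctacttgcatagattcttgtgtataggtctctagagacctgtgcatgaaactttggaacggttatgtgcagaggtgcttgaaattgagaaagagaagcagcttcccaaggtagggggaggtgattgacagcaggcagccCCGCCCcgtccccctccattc
Promoters were found for 35 of the 44 genes, 38 in all, and 3 motifs were searched on both strands. TATAAA, the core of the TATA box, occurred in 5 of 38 collagen promoters and in 12.4% of all 32851 promoters of this length. CCAAT occurred in 13 of 38 and in 33.9% of all, and GGGCGG, the core bound by Sp1, in 22 of 38 and in 32.7% of all. A match is a run of letters and not a measured site.

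Type VI collagen, which anchors cells to their surrounding matrix, was the most abundant of the beaded filament group. Col6a1 was at 49.0, 98.7 and 91.0 CPM in Sham, 462, 422 and 545 CPM in SCI and 381, 435 and 465 CPM in SCI+FIPI mice. Col6a2 was at 28.3, 84.7 and 73.8 CPM in Sham, 390, 345 and 451 CPM in SCI, and 304, 358 and 406 CPM in SCI+FIPI mice. Col6a3 was at 10.2, 30.02 and 25.2 CPM in Sham, 285, 379 and 339 CPM in SCI and 275, 293 and 225 CPM in SCI+FIPI mice. In all 3 genes Sham 1 was the lowest mouse and the injured groups overlapped. They rose by 2.58, 2.66 and 3.93 in SCI on the log2 scale, and their edgeR adjusted p-values with FIPI were 0.758, 0.853 and 0.589. Col6a5, a scarce chain of the same type, rose from 0.852 ± 0.398 CPM to 5.57 ± 1.91 CPM (SD, n = 3 each), whereas Col6a4 and Col6a6 were not called.

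Chains that assemble together did not keep a fixed RNA ratio across the groups. Type I collagen holds Col1a1 and Col1a2 chains, and the FPKM ratio of Col1a1 to Col1a2 was 1.56, 1.61 and 1.69 in Sham mice. It was 3.15, 3.35 and 2.97 in SCI and 2.94, 2.96 and 2.96 in SCI+FIPI mice, with no overlap between Sham and injured mice. The ratio of Col4a1 to Col4a2 was 0.643, 0.823 and 0.732 in Sham, 1.19, 1.23 and 1.24 in SCI and 1.15, 1.13 and 1.13 in SCI+FIPI mice. That of Col4a5 to Col4a6 was 3.82 to 3.96 in Sham and 2.16 to 2.25 in SCI mice. In contrast, the Col6a1 to Col6a2 ratio had overlapping ranges, 2.21 to 3.30 in Sham and 2.25 to 2.33 in SCI mice. The ratio of Col6a3, also a type VI chain, to Col6a1 did not overlap between Sham and injured mice. It was 0.0758 to 0.111 in Sham, 0.226 to 0.328 in SCI and 0.177 to 0.265 in SCI+FIPI mice. These ratios use the total exonic length of each gene, so their values depend on that length, whereas the fold difference of a ratio between mice does not.

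**Figure D5:**
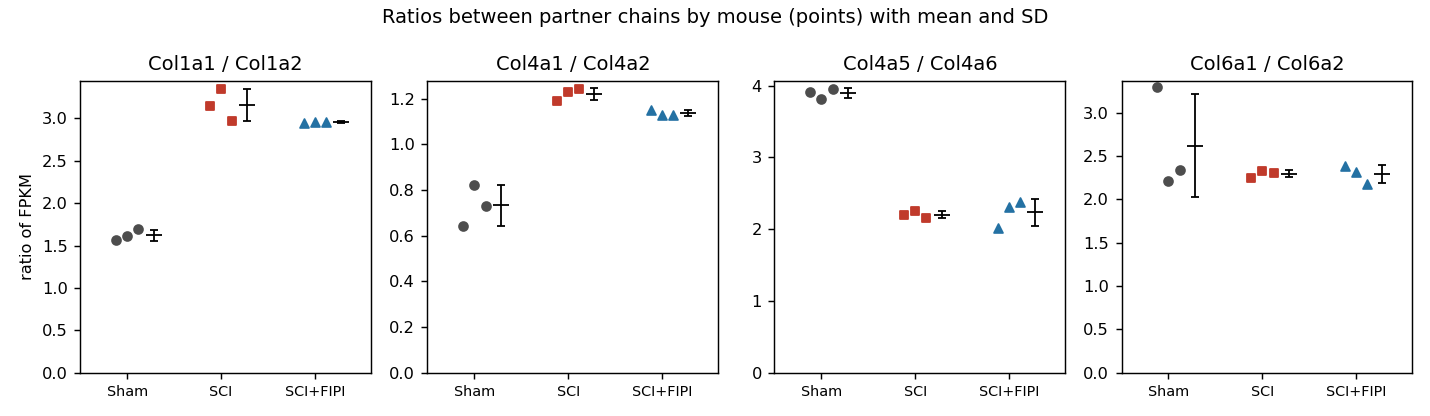
Ratio of the FPKM of partner chains in each mouse (points, 3 a group) with the mean and SD; each vertical axis starts at 0. Col1a1 to Col1a2 and Col4a1 to Col4a2 were higher in all injured than in all Sham mice, Col4a5 to Col4a6 was lower, and Col6a1 to Col6a2 overlapped.

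Fibril-associated collagens, which decorate the surface of fibers, had a median log2 fold change of 1.24 in SCI. Of 9, 6 rose and 1 fell, against 24.4% and 22.5% of all genes tested. With FIPI 0 of 9 were called by edgeR, DESeq2 or limma-voom (2 at an unadjusted p under 0.05 in edgeR). Among all genes tested 2.36% rose and 0.695% fell with FIPI, so 0 calls among 9 do not set the class apart. Col16a1 was the most abundant of the class per length. It was at 99.0, 95.5 and 87.2 CPM in Sham, 257, 269 and 269 CPM in SCI and 208, 245 and 233 CPM in SCI+FIPI mice. The rise was 1.497 (SE 0.0709), and with FIPI all 3 mice were below the SCI mice, with a log2 fold change of -0.21 and an edgeR adjusted p of 0.0636. Col9a3 was at 34.6, 31.4 and 30.3 CPM in Sham, 76.9, 75.6 and 74.8 CPM in SCI and 75.2, 70.2 and 77.6 CPM in SCI+FIPI mice, so that it rose by 1.24 and the injured groups overlapped. Its partner Col9a1 rose by 0.76 (edgeR adjusted p = 0.00892), a call lost with offsets for GC content and exonic length, and Col9a2 had 0.46, under the fold limit. Col12a1, Col14a1 and Col20a1, which carry fibronectin-like repeats, rose by 2.12, 2.80 and 2.22.

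Col19a1 and Col25a1, both known from neurons, fell in SCI. Col19a1, needed for hippocampal synapses, was at 4.84, 4.36 and 4.76 CPM in Sham, 1.47, 0.744 and 1.22 CPM in SCI and 2.82, 1.65 and 1.64 CPM in SCI+FIPI mice. Its log2 fold change was -2.02 (SE 0.265, edgeR adjusted p = 8e-06) in SCI against Sham and 0.82 (SE 0.281, edgeR adjusted p = 0.0799) with FIPI. Every SCI+FIPI mouse lay above every SCI mouse, and the call was gained without SCI 1 (1.05, edgeR adjusted p = 0.0392) and with no filter on low counts (0.82, edgeR adjusted p = 0.025).

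Col25a1, a transmembrane collagen of neurons that motor axons need to innervate muscle, was at 30.7, 30.1 and 33.4 CPM in Sham mice. It was at 8.30, 7.20 and 7.93 CPM in SCI and 11.8, 12.1 and 10.9 CPM in SCI+FIPI mice. The groups did not overlap. It fell by 2.01 on the log2 scale in SCI (SE 0.0932) and was the 1 collagen that rose with FIPI, by 0.57 (SE 0.0963, edgeR adjusted p = 0.00487). This call passed under all 18 alternative settings, and Col25a1 remained 1.44 lower than in Sham (log2 fold change -1.44). Neuronal markers moved beside it: 8 of 8 fell in SCI, against 22.5% of all genes tested. With FIPI 5 of 8 rose, against 2.36% of all genes tested. The summed CPM of these 8 markers was 7560 to 8568 in Sham, 2292 to 3290 in SCI and 3833 to 4559 in SCI+FIPI mice. Their part in the Col19a1, Col24a1 and Col25a1 values was not tested.

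Of the remaining transmembrane and other collagens, 3 rose in SCI, against 24.4% of all genes tested, and 2 were not called. Col7a1, the anchoring fibril collagen, was at 10.1, 8.77 and 6.98 CPM in Sham, 82.1, 126 and 85.7 CPM in SCI and 69.2, 84.3 and 56.4 CPM in SCI+FIPI mice. It rose by 3.52 (SE 0.262) and its log2 fold change with FIPI was -0.49 (SE 0.219, edgeR adjusted p = 0.227), with overlapping mice. Col23a1 was at 31.9, 43.8 and 44.8 CPM in Sham, 65.3, 54.8 and 75.4 CPM in SCI and 53.9, 61.2 and 78.1 CPM in SCI+FIPI mice. Its rise of 0.70 (edgeR adjusted p = 0.0133) was lost without SCI 3 and with offsets for GC content and exonic length. Col28a1, a collagen of peripheral nerve, rose by 2.41, and Col13a1 and Col26a1 had 0.43 and -0.03.

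Over all classes, 4 of 43 collagens were called with FIPI. In SCI+FIPI against SCI, 3 of 43 fell and 1 rose, against 0.695% of all genes tested that fell and 2.36% that rose, and 39 did not pass. The median log2 fold change was -0.15 over the collagens, with 30 of 43 negative (Col11a1 and Col23a1, near 0, turned positive with upper-quartile factors), and -0.001 over all genes tested. The count of 4 ranged from 1 to 8 when a mouse of these groups was left out: it was 1 without SCI 3 or without SCI+FIPI 2, where Col25a1 stayed, and 8 without SCI 1. Against Sham, 33 of 43 were higher in SCI+FIPI mice and 3 lower, where 21.2% and 17.0% of all genes tested were. The SCI mice serve in both other comparisons, so these counts are not independent.

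Genes that make, bind and break down collagen were read from 5 lists. Among all genes tested, 24.4% rose and 22.5% fell in SCI, and 2.36% rose and 0.695% fell with FIPI. At the FIPI shares, 0 calls in lists this short do not set them apart from all genes. Of 22 genes for chain modification and folding, 18 rose in SCI and 0 fell, and the median log2 fold change was 1.11. With FIPI 0 were called in edgeR, DESeq2 or limma-voom and 8 had an unadjusted p under 0.05 in edgeR (median -0.15). P4hb, a subunit of prolyl hydroxylase, was at 169 to 186 CPM in Sham, 554 to 616 CPM in SCI and 495 to 527 CPM in SCI+FIPI mice. Its groups did not overlap, but its log2 fold change of -0.22 with FIPI was under the fold limit (edgeR adjusted p = 0.0452). Serpinh1, the collagen chaperone, went from 41.4, 79.6 and 86.4 CPM in Sham to 446, 550 and 535 CPM in SCI and 408, 499 and 461 CPM in SCI+FIPI mice, where the injured groups overlapped. Crtap, part of the prolyl 3-hydroxylation complex, was at 10.2 to 13.4 CPM in Sham, 72.2 to 86.7 CPM in SCI and 66.7 to 70.4 CPM in SCI+FIPI mice.

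Of 13 genes for procollagen cleavage and cross-linking, 8 rose in SCI, against 24.4% of all genes tested. In the same list 2 fell (Adamts3 and Tll2), against 22.5%, and the median log2 fold change was 1.86. With FIPI 0 were called by the same 3 tools, and 5 had an unadjusted p under 0.05 in edgeR. The lysyl oxidase Loxl1 was at 8.14 to 18.9 CPM in Sham, 135 to 173 CPM in SCI and 112 to 127 CPM in SCI+FIPI mice, without overlap. Pcolce, which enhances cleavage of the C-propeptide, and Bmp1, the protease that makes the cut, rose as well, from at most 27.7 and 73.8 CPM in Sham to at least 138 and 255 CPM in SCI. Among 12 collagen-binding matrix proteins 10 rose in SCI (median 1.72), and with FIPI 0 were called by the 3 tools and 0 had an unadjusted p under 0.05 in edgeR. Sparc, a secreted protein that binds collagen, was at 1427 to 1580 CPM in Sham and 3294 to 3498 CPM in SCI mice, fibronectin Fn1 at 189 to 483 and 1932 to 2659 CPM, and the proteoglycan Bgn at 39.5 to 77.7 and 712 to 885 CPM.

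Of 9 receptors tested, 8 rose in SCI (median 1.47), against 24.4% of all genes tested. With FIPI 9 of 9 were negative (median -0.15), 0 were called in edgeR, 3 had an unadjusted p under 0.05 there, and DESeq2 and limma-voom each called 1 (Itga2, an integrin chain). The receptor tyrosine kinase Ddr1 was at 275 to 344 CPM in Sham, 515 to 540 CPM in SCI and 440 to 511 CPM in SCI+FIPI mice. Itgb1, the common integrin partner, was at 116 to 145, 341 to 384 and 321 to 335 CPM in that order. Adgrg1, the receptor of type III collagen in brain, had a log2 fold change of 0.36 in SCI, under the fold limit. Of 8 genes for collagen breakdown, 7 rose in SCI (median 2.78), and with FIPI 0 were called by the 3 tools and 1 had an unadjusted p under 0.05 in edgeR. Mmp14, a membrane-bound protease, was at 48.5 to 60.1 CPM in Sham, 456 to 581 CPM in SCI and 353 to 462 CPM in SCI+FIPI mice. Mmp2 and Ctsk were at 12.2 to 18.0 and 12.7 to 18.7 CPM in Sham and at 118 to 146 and 58.9 to 69.6 CPM in SCI mice.

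Markers of the cell types that the segment could hold were read beside the family. Among all genes tested, 24.4% rose and 22.5% fell in SCI against Sham, and 2.36% rose and 0.695% fell with FIPI. In SCI against Sham, 9 of 10 fibroblast and meninges markers, 4 of 7 pericyte, 5 of 8 endothelial, 8 of 8 macrophage and microglia, 2 of 6 Schwann cell and 3 of 6 astrocyte markers rose, while 1 astrocyte marker (Slc1a2) and 3 of 6 oligodendrocyte markers fell. Of 7 skeletal muscle markers 0 were called in either comparison by edgeR, DESeq2 or limma-voom and 0 had an unadjusted p under 0.05 in edgeR, with summed CPM of 8.02 to 41.6 over the 9 mice. With FIPI, fibroblast and meninges markers had 0 of 10 called by the 3 tools, 0 at an unadjusted p under 0.05 in edgeR, and summed CPM of 740.1 to 1041 in SCI and 743.6 to 1063 in SCI+FIPI mice. Macrophage and microglia markers had 0 of 8 called by the 3 tools, 4 at an unadjusted p under 0.05 in edgeR and 8 of 8 negative, with 2544 to 3139 summed CPM in SCI and 2042 to 2332 in SCI+FIPI mice. The part of any of these in the collagen values was not tested.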

How the data were processed

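The deposited table held raw counts per Ensembl gene for 9 mice, which the authors made from reads of poly(A)-selected RNA after removal of low-quality and adapter sequence, with 1 column per mouse and none pooled. Genome build GRCm38 and R 4.2.3 come from the submitters' processing notes. The aligner, the counter, its annotation and its use of strand are not given in the sources used here, so reads shared by overlapping genes could have been assigned either way.

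Genes were named through GENCODE M21 (52403 of 52550 identifiers matched). Counts were scaled by TMM, filtered by edgeR's default rule and fitted in edgeR 4.0.16 (R 4.3.3) with 1 mean per group over all 9 mice, leaving 6 residual degrees of freedom and a common dispersion of 0.00866. P-values were adjusted over all 18699 genes tested by Benjamini-Hochberg. An exact permutation test of 3 against 3 mice cannot go below 0.1 and was not used for calls. FPKM used library totals and total exonic length. The pipeline was tested on simulated counts that gave every gene the common dispersion, which does not cover genes of larger spread. Alternatives were other scalings, filters, offsets, DESeq2 1.42.0, limma-voom (limma 3.58.1) and each mouse left out.

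Values in every mouse are given for Col10a1, collagens changed with FIPI, the 2 members of highest mean FPKM in each class and the 5 largest rises and falls in SCI (only 3 fell). In each pathway list the 3 genes of highest mean FPKM are named. Members, classes and lists were chosen with earlier results of these data known. Same-numbered mice of separate groups are not the same animal, and their deviations from the group means correlated at -0.0726 to 0.109, so no pairing was used. Replicates of a group differed beyond sampling noise (chi-square per gene 6.76 to 13.2).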

Additional observations from a re-analysis of the deposited data

How the results depend on the processing

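The number of collagens changed in SCI against Sham was 33 and ranged from 31 to 36 over all settings, and in SCI+FIPI against Sham it was 36, with 33 to 38. In SCI+FIPI against SCI it was 4, with 3 to 6 under the settings that kept all mice and 1 to 8 when a mouse of these groups was left out. With a replicate block the counts were 33, 4 and 36. The block took Col4a1 over the limit in SCI+FIPI against SCI (adjusted p = 0.0505 in edgeR) and brought Col4a6 within both limits (log2 fold change -0.50). The mice share only a number.

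For the 43 members tested in 3 comparisons, 129 log2 fold changes in all, 2229 alternative values kept their direction and side of the limits, 30 came to pass them, 28 no longer passed and 32 changed sign. The sign changes fell on 17 of the 129 log2 fold changes, from 12 members, and 0 of the 17 were called in edgeR. With a mouse left out, the ranges in SCI against Sham were Col4a3 (-0.045 to 0.27), Col6a4 (-0.80 to 0.63), Col6a6 (-0.012 to 0.28) and Col26a1 (-0.090 to 0.056). In SCI+FIPI against SCI they were Col4a3 (-0.11 to 0.43), Col12a1 (-0.16 to 0.13), Col9a1 (-0.22 to 0.053), Col9a3 (-0.059 to 0.013), Col11a1 (-0.15 to 0.052), Col2a1 (-0.13 to 0.015), Col8a2 (-0.46 to 0.0055), Col13a1 (-0.26 to 0.27), Col23a1 (-0.18 to 0.10) and Col26a1 (-0.046 to 0.18). In SCI+FIPI against Sham they were Col4a3 (-0.00078 to 0.54), Col6a4 (-0.36 to 1.06) and Col26a1 (-0.067 to 0.16). Limma-voom gave 0.041 for Col6a4 in SCI against Sham. Upper-quartile factors gave 0.0082 for Col11a1 and 0.0037 for Col23a1 in SCI+FIPI against SCI. Offsets for GC content and exonic length gave -0.032 for Col6a4 and -0.029 for Col26a1 in SCI+FIPI against Sham. The causes were not tested. The offsets shifted the median of all genes by -0.13 in SCI against Sham and -0.15 in SCI+FIPI against Sham, and the other scalings by under 0.1.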
